A study of Caenorhabditis elegans with 2 samples.

Results

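ATP-binding cassette (ABC) transporter genes were followed on arrays of whole Caenorhabditis elegans larvae, raised with or without a grape seed compound. The genes were taken by name. A gene counted as a member if its symbol began with pgp, mrp, haf, wht, abt, abcf, pmp or abce followed by a number, or was ced-7 or cft-1, and if at least 1 probe set of the array was annotated with that symbol alone. This gave 54 genes, on 68 probe sets, of 17118 singly named genes in all. The rule itself uses no measured value, although it was set with earlier results of these data known. Of 57 symbols of this form in the WBcel235 gene table, pgp-6, pgp-7 and pmp-4 had no probe set of their own.

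The control sample was the wild-type strain N2, hermaphrodites at the fourth larval stage (L4), on standard plates with Escherichia coli OP50 as food. The exposed sample was N2 of the same stage, on plates that also held 2 µg/mL of pOPC7, a gallate of a proanthocyanidin trimer from grape seeds (Vitis vinifera). Both populations were synchronised by bleaching, grew at 20 °C and were collected after 48 hours. The deposited data hold 1 column per group, treated here as 1 array. No difference below therefore has a replicate check or a p-value, and precision is limited by this number of arrays. RNA came from whole animals, so fewer cells of a type and less RNA per cell cannot be told apart.

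ABC proteins bind and hydrolyse ATP at paired nucleotide-binding domains, and most use that energy to move a substrate across a membrane. In the nematode the P-glycoproteins and the multidrug resistance proteins export toxins, drugs and metal conjugates, many of them from the intestine, which is the first tissue to meet a compound taken up with food. Other families carry lipids, peptides or fatty acyl chains between compartments, and the ABCE and ABCF families have no membrane domain and work on ribosomes.

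Of the 54 genes, 30 averaged 6 or more on the log2 scale of the deposited values, taking the arrays together, and are called measured (55.6%, against 47.1% of all genes). None of the 30 differed between the arrays by 1.5-fold (0.58 on the log2 scale), where 0.732% of all 8059 measured genes were higher by 1.5-fold with pOPC7 and 0.211% were lower. At these shares a set of 30 genes without any such member is not a result about ABC genes. Within 1.2-fold lay 25 of the 30, against 82.3% of all measured genes. The differences, here always the pOPC7 value minus the control value on the log2 scale, ran from -0.55 to 0.44. Their median was 0.09 and their SD 0.22, beside a median of 0.04 and an SD of 0.20 over all measured genes. Of the 30, 20 were above 0, against 57.8% of all measured genes, and 17 remained above 0 when the all-gene median was subtracted.

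A yardstick for a single gene was the spread of genes of like brightness, as the robust SD of the differences of the 500 genes nearest in mean level. The difference was past 1 such SD for 13 of the 30 (34% of all measured genes) and past 2 for 4 (6.32% of all measured genes), namely pgp-9 and haf-9 (higher with pOPC7) and haf-2 and wht-2 (lower). None was past 3 (1.05%). A second yardstick was the disagreement between probe sets of the same gene, which over 1721 genes corresponded to an SD of 0.22 for the difference of a single probe set. Across these genes, 2 probe sets of a gene hardly shared their change between the arrays (r = 0.08, as a description). Of the 30, 23 had only 1 probe set behind them, and so had 75.2% of all measured genes. The members are therefore described below as values of these 2 arrays. Levels of different genes are not compared, since each probe set has its own brightness.

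**Figure D1:**
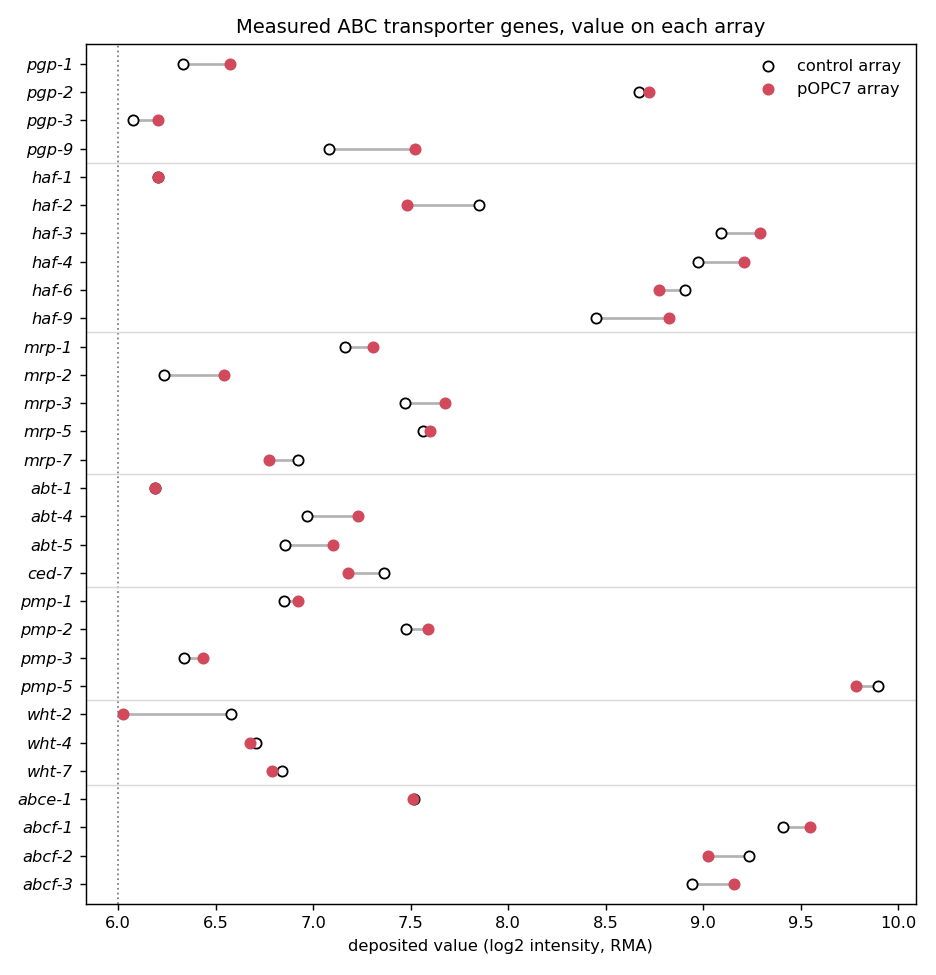
The 30 measured ABC genes, grouped by class (grey rules) with the deposited log2 value on the x axis; open circles are the control array, filled circles the pOPC7 array, and the dotted line marks the level of 6. The widest gaps are those of wht-2 (lower with pOPC7) and of pgp-9 and haf-9 (higher).

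The pgp genes encode P-glycoproteins, full-length exporters of the ABCB family. Of 13 on the array 4 were measured, and all 4 were above 0, against 57.8% of all measured genes. Their median difference was 0.18, beside 0.04 over all measured genes. With 4 genes, each on 1 probe set, this is not a result about the class. pgp-9 read 7.08 on the control array and 7.52 on the pOPC7 array, a difference of 0.44 or 1.36-fold. This was the highest difference among the measured ABC genes, 2.33 robust SDs of genes of like level, and above 97.9% of all measured genes. The value of pgp-9 rested on 1 probe set without a suffix. Only settings that centred the differences could therefore change it, to between 0.38 and 0.41. pgp-1 read 6.33 and 6.57 (difference 0.24), and pgp-3, which like pgp-1 is active in the intestine and protects against toxins and drugs, read 6.08 and 6.21 (0.13). The robust SD at these levels was 0.22 for pgp-1, about the size of its difference, and 0.21 for pgp-3, above its difference. pgp-2, needed to form the lysosome-related granules of the gut, read 8.67 and 8.72. Its difference of 0.05 had the opposite sign, -0.01, when probe sets were centred in bins of their number.

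The other 9 pgp genes lay below the measured level, between 3.53 and 5.54 on either array. Of these 4 were above 0 and 5 below, with a median of -0.02. pgp-14, which is known for building a lipid barrier in the pharyngeal cuticle, read 5.54 in the control and 5.09 with pOPC7 (-0.45), with -0.61 and -0.30 in its 2 probe sets. At this brightness the robust SD was 0.26.

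Several pgp genes lie side by side on the X chromosome, which holds 9 of the 13. In the run of pgp-5, pgp-8, pgp-7 and pgp-6, each is the next protein-coding gene to the one before. pgp-5 read 3.57 in the control and 3.98 with pOPC7 (0.41), and pgp-8 read 4.90 and 5.26 (0.36). The only probe set for pgp-6 and pgp-7 names both genes and is therefore outside the rule. It read 4.95 and 5.65, a difference of 0.70 or 1.62-fold and 2.48 robust SDs of probe sets of like level. All 3 readings of this run were higher on the pOPC7 array. All are dim, and among all 17118 genes without a limit on level 1.95% were higher by 1.5-fold and 0.45% lower. The run was singled out after its values were seen. Close copies can share probe signal, and the probe sets of pgp-5 and of pgp-6 with pgp-7 carry a suffix for matches to several transcripts. A second run of neighbours showed no common direction, with pgp-12 at -0.24, pgp-13 at 0.22 and pgp-14 at -0.45. The neighbours pgp-3 and pgp-4 differed by 0.13 and -0.10.

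**Figure D2:**
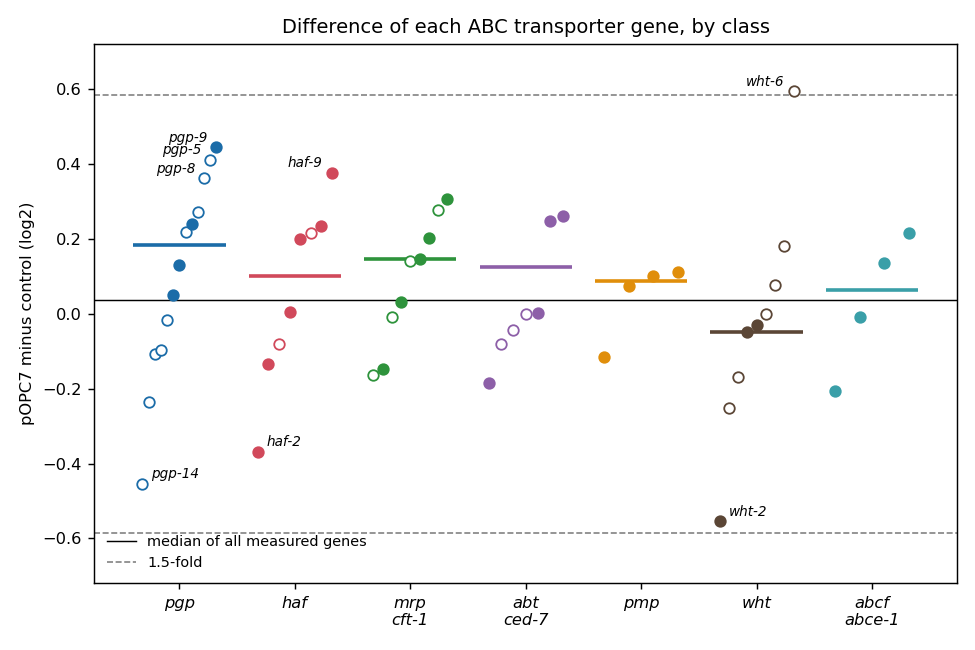
Difference between the pOPC7 and the control array (log2) for all 54 ABC genes by class; filled points are measured genes, open points lie below the level of 6, coloured bars are medians of measured genes, and dashed lines mark 1.5-fold. wht-6, below the measured level, is past the upper dashed line, and no measured gene passes either line.

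The mrp genes encode ABCC transporters that export organic anions, often as glutathione or glucuronide conjugates. With cft-1, the homologue of the human chloride channel CFTR, 9 were on the array and 5 were measured. Of these 4 were above 0, against 57.8% of all measured genes, with a median of 0.15. mrp-1 takes part in resistance to cadmium and arsenite. It read 7.16 in the control and 7.31 with pOPC7 (0.15). mrp-2, its neighbour on the X chromosome, read 6.24 and 6.54. The difference of mrp-2, 0.31 or 1.24-fold, was the highest of the class and 1.35 robust SDs. mrp-3 read 7.47 and 7.67 (0.20). mrp-5, which exports heme from the intestine, read 7.566 and 7.597. Its difference of 0.03 became -0.01 after centring on the all-gene median and -0.02 once a trend with level was taken out, and its 2 probe sets gave -0.01 and 0.07. mrp-7 was the lower one, with 6.92 and 6.78 (-0.15).

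No member of this class was past 2 robust SDs. The values of mrp-1, mrp-2, mrp-3 and mrp-7 each rested on 1 probe set with a suffix for several transcripts, and without such probe sets mrp-5 alone was left. The 4 dim genes of the class read between 4.32 and 5.86. cft-1 read 5.58 and 5.86 (0.28), and mrp-8 differed by 0.14. mrp-4, linked to the formation of lysosome-related organelles in the gut, differed by -0.16, and mrp-6 by -0.01. The probe sets of mrp-4 gave -0.46 and 0.13 and those of mrp-6 -0.22 and 0.20, so that neither gene had a common sign. As for the heme genes fixed beside mrp-5, 2 of 5 on the array were measured, and none was past 1.5-fold. These were hrg-1, a heme importer, with a difference of 0.05, and hrg-7 with 0.16.

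The haf genes encode smaller ABCB proteins with a single membrane domain and a single nucleotide-binding domain, which work as pairs in membranes inside the cell. Of 8 on the array 6 were measured, with a median of 0.10. Their SD of 0.27 was the widest among classes of 4 or more measured genes. haf-9 read 8.45 in the control and 8.83 with pOPC7. The difference of 0.38, or 1.30-fold, came to 2.31 robust SDs. haf-4 read 8.97 and 9.21 (0.23, 1.44 robust SDs). The products of haf-4 and haf-9 form a heterodimer in the membrane of gut granules. Both genes were thus higher on the pOPC7 array. The value of haf-9 rested on 1 probe set, so only the 3 kinds of centring could change it, to between 0.32 and 0.35. That of haf-4 ranged from 0.16 to 0.48 over the settings. The 3 probe sets of haf-4 gave 0.06, 0.16 and 0.48, all above 0.

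On the other side stood haf-2, with 7.85 in the control and 7.48 with pOPC7. Its difference of -0.37, or 1.29-fold lower, was -2.04 robust SDs and rested on 1 probe set with a suffix for several transcripts. haf-6, needed for efficient RNA interference, read 8.91 and 8.78 (-0.13). haf-3 read 9.09 and 9.29 (0.20). haf-1, a mitochondrial peptide exporter of the mitochondrial unfolded protein response, read 6.20 and 6.21, and its sign turned to -0.03 after centring and to -0.07 after removal of the trend with level. The dim genes haf-7 and haf-8 differed by -0.08 and 0.22.

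Genes that work beside the granule transporters were given by a list of gut granule biogenesis genes, of which 22 were on the array and 17 measured. None was past 1.5-fold. Of the 17, 13 were above 0 and the median was 0.20, against 57.8% and 0.04 over all measured genes. The highest were apd-3, a subunit of the AP-3 adaptor (0.43), the zinc transporter gene cdf-2 (0.41), whose product sits in gut granules, and vps-18 (0.31), which encodes a tethering subunit for lysosomes. Of the others, 3 were below 0. In the list of RNA interference genes beside haf-6, 14 were measured, none was past 1.5-fold, 10 were above 0 and the median was 0.07. Its largest differences were those of mut-15 (0.31), rde-1 (-0.30), which encodes the Argonaute that receives primary small RNAs, and sid-2 (0.22), which takes up double-stranded RNA from the gut.

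The abt genes and ced-7 belong to the ABCA family, whose members move lipids. Of 7 on the array 4 were measured, with a median of 0.12. abt-4 read 6.97 in the control and 7.23 with pOPC7 (0.26), and abt-5 read 6.85 and 7.10 (0.25). Each was 1.30 or 1.29 robust SDs above 0 in that order. abt-1 read 6.19 on both arrays, and its sign turned to -0.04 after centring on the all-gene median. The dim genes abt-2, abt-3 and abt-6 read between 4.13 and 5.18, and none of their gene means was above 0, although the brighter of the 2 probe sets of abt-2 gave 0.11 and the other -0.19.

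ced-7 is needed for dying cells to be engulfed and acts in a pathway with the receptor gene ced-1 and the adaptor gene ced-6. It read 7.37 in the control and 7.18 with pOPC7 (-0.18), but its 2 probe sets gave 0.05 and -0.42. ced-1 differed by -0.25, from probe sets at -0.58 and 0.08. ced-6 read 7.21 and 6.64, a difference of -0.57, and both of its probe sets were below 0 (-0.71 and -0.43). Of the 11 measured engulfment genes on the list fixed beside ced-7, none was past 1.5-fold, 4 were above 0 and 7 below, and the median was -0.04. Over all measured genes 57.8% were above 0 and the median was 0.04. The second of the list by size, after ced-6, was nrf-5 (-0.30), which encodes a lipid-binding protein. The means of ced-7, ced-1 and ced-6 were thus lower on the pOPC7 array, while 4 of the 11 measured genes of the list were above 0. For ced-7 and ced-1 the sign was not shared by their probe sets.

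The pmp genes encode proteins of the ABCD family, which is best known for bringing fatty acyl chains into peroxisomes for oxidation. Whether each pmp product has that site and role was not tested here. All 4 on the array were measured, and they were the class with the smallest spread among those of 4 or more measured genes (SD 0.11, median 0.09). pmp-1 read 6.85 and 6.92 (0.07). pmp-2, the gene next to it, read 7.48 and 7.59 (0.11). pmp-3 read 6.34 and 6.44 (0.10), with 0.34 and -0.14 in its 2 probe sets. pmp-5 read 9.90 and 9.78 (-0.11). All 4 differences were under 1 robust SD. Among peroxisomal genes fixed beside them, 13 were measured and none was past 1.5-fold. Against 57.8% above 0 and a median of 0.04 over all measured genes, 8 of the 13 were above 0 and their median was 0.15. The largest differences there were those of the import receptor gene prx-5 (0.33), of prx-11 (-0.27) and of prx-3 (0.24).

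**Figure D3:**
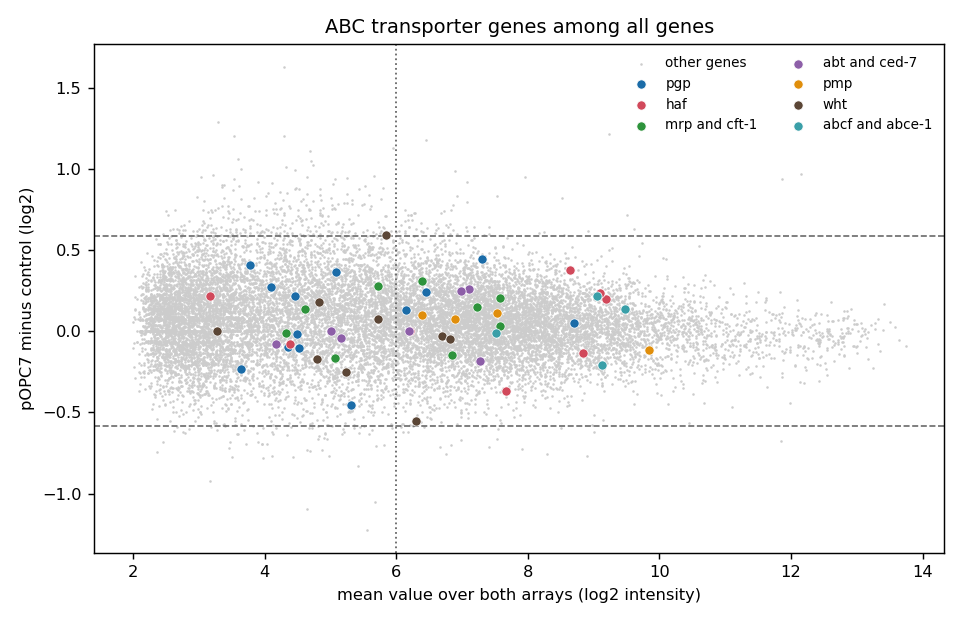
Difference (log2, y axis) against mean level over both arrays (log2, x axis) for all 17118 genes (grey) and the 54 ABC genes (coloured by class); the dotted line marks the level of 6 and dashed lines mark 1.5-fold. The ABC genes lie within the cloud, which for measured genes narrows with level (robust SD 0.21 between 6 and 7, 0.12 above 10).

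The wht genes encode ABCG transporters related to the white gene of Drosophila, again with a single domain of each kind. Of 9 on the array only 3 were measured, with a median of -0.05. They were the only class in which no measured gene was above 0, against 57.8% of all measured genes. With 3 genes this is not a result about the class, and of its 6 dim members 3 were above 0. wht-2 read 6.58 in the control and 6.03 with pOPC7. Its difference of -0.55, or 1.47-fold lower, was the largest in size of all measured ABC genes, -2.55 robust SDs, and lower than all but 0.347% of measured genes. It came close to the 1.5-fold line and passed it at -0.59 after centring on the all-gene median, -0.62 after removal of the trend with level, and -0.62 after centring in bins of probe set number. It rested on 1 probe set without a suffix, near the lower limit of measured levels.

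wht-4 read 6.71 and 6.68 (-0.03), and wht-7 read 6.84 and 6.79 (-0.05), both far inside the spread. The probe sets of wht-7 gave 0.07 and -0.17. Of the 6 dim members, wht-6 was past 1.5-fold, with 5.54 in the control and 6.13 with pOPC7 (0.59, 1.51-fold). Just below the measured level, it went the opposite way from wht-2, also at 2.56 robust SDs. wht-1 read 5.36 and 5.11 (-0.25), and its 3 probe sets gave -0.52, -0.05 and -0.19. wht-5 differed by -0.17, wht-8 by 0.08 and wht-9 by 0.18, while wht-3 read 3.28 on both arrays.

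The abcf genes and abce-1 encode soluble ABC proteins of translation. abce-1 is the homologue of the factor that splits ribosomes after termination, and abcf-3 that of yeast GCN20, a partner of GCN1. All 4 were measured, and 2 were above 0 (median 0.06). abcf-1 read 9.41 in the control and 9.55 with pOPC7 (0.13), and abcf-3 read 8.95 and 9.16 (0.22). abcf-2 read 9.23 and 9.03 (-0.21), but its 2 probe sets gave -0.54 and 0.12, and the brighter one alone turned the sign of the gene. abce-1 read 7.52 and 7.51, with probe sets at -0.12 and 0.10. Of the 22 translation genes fixed beside them, all measured, none was past 1.5-fold. Against 57.8% above 0 and a median of 0.04 over all measured genes, 12 of the 22 were above 0 and their median was 0.01. The largest were gcn-2 (-0.49), the kinase that responds to uncharged tRNA, with both probe sets below 0 (-0.61 and -0.37), eif-3.H (-0.40) and eif-2gamma (-0.39).

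A list drawn up for regulators of the response to foreign compounds was also read beside the transporters. The role of each listed gene in that response was not tested here. Of 12 on the list 8 were measured, and none of these was past 1.5-fold. Against 57.8% above 0 and a median of 0.04 over all measured genes, 7 of the 8 were above 0 and their median was 0.13. nhr-48, a relative of the vertebrate vitamin D and xenobiotic receptors, was highest (0.52), followed by nhr-86 (0.25) and nhr-102 (0.17), also nuclear receptor genes. Of the 4 dim genes of the list, cky-1 was past 1.5-fold, with 4.60 in the control and 5.31 with pOPC7 (0.71). Of all 9059 genes below the measured level, 274 were higher by 1.5-fold and 60 lower. Of ABC genes that the name rule leaves out, hmt-1, known for resistance to heavy metals, read 8.25 and 8.10 (-0.15), and the mitochondrial gene abtm-1 read 6.46 and 6.70 (0.24).

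The difference of a probe set went with its number in the array's numbering. Over all genes, probe sets numbered below 176000 at a level of at least 6 had a median difference of -0.06, and those numbered higher had 0.06. Of the 10 ABC genes with probe sets of both kinds, the low-numbered ones were below the others in 9, the exception being ced-7, with a median gap of -0.34. Over all 2146 such genes the gap was -0.16, and 70.0% had it in that direction. Among the 30 measured ABC genes 23 had high-numbered probe sets only, and their median was 0.13, against 0.06 for all 5776 measured genes of that kind. The part of this shift in each difference was not tested beyond the settings named here. Opposite signs were found in 9 of the 12 ABC genes that have several probe sets. The share over all such genes was not computed, so this count is not a result about ABC genes.

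**Figure D4:**
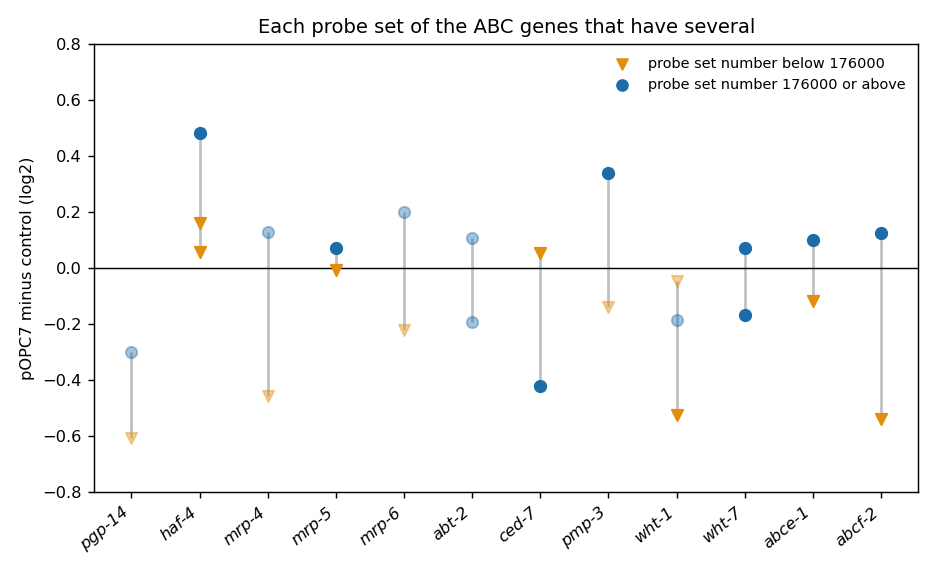
Difference (log2, y axis) of every probe set of the 12 ABC genes that have several; triangles are probe sets numbered below 176000, circles those numbered higher, and pale symbols have a mean level under 6. The symbols of a gene lie on both sides of 0 in 9 of the 12, a count without an all-gene share beside it. The triangle is below the circle in most.

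Brightness also went with the differences. Between levels of 6 and 7 the 12 ABC genes had a median difference of 0.04, beside 0.06 for all genes there. Between 7 and 8 the 9 ABC genes had 0.11 beside 0.06, and between 8 and 10 the 9 ABC genes had 0.13 beside 0.03. The 24 genes below the measured level had a median of -0.01, with 10 above 0, while all genes below that level had 0.08. Over all 54 members the median was 0.04 and 30 were above 0, beside 0.06 and 59.9% for all genes without a limit on level.

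**Figure D5:**
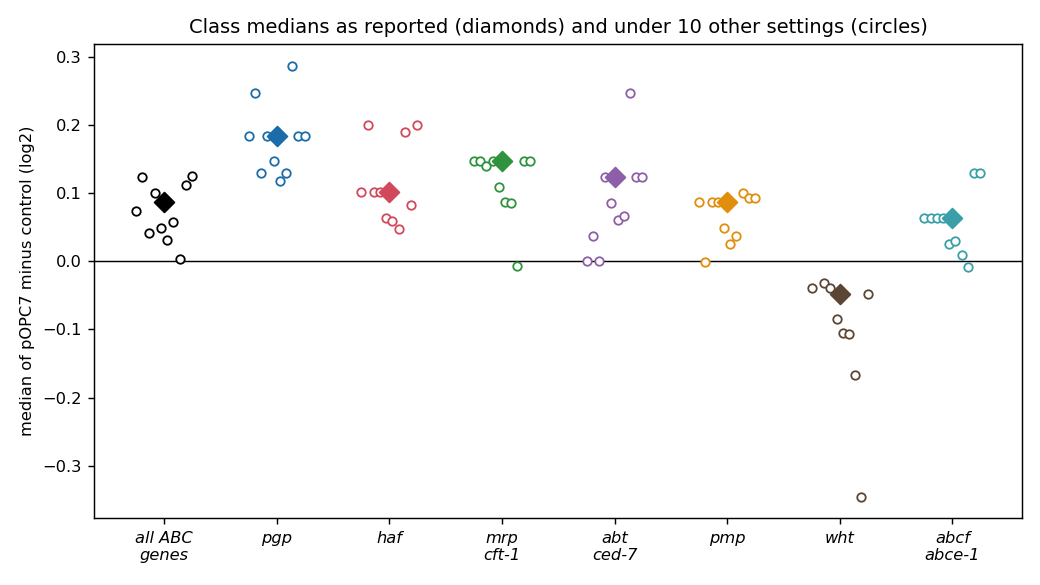
Median difference (log2, y axis) of the measured genes of all ABC classes together and of each class, as reported (diamonds) and under 10 other settings (circles). The pgp median is above 0 and the wht median below 0 in every setting that gives a value, while the mrp, pmp and abcf medians each cross 0 once. The settings largely reuse the same few values, so a constant sign was partly fixed in advance.

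Over measured genes the values of the 2 arrays correlated across genes with r = 0.991, as a description. Each probe set has its own brightness on both arrays, so this r does not measure how far genes changed. Markers of the tissues of a whole hermaphrodite were measured for intestine (6 of 7 measured, median difference 0.02), body wall muscle (5 of 5, 0.04), hypodermis (6 of 6, 0.04), pharynx (3 of 4, 0.07), neurons (3 of 6, -0.08) and germline (5 of 5, -0.02), and no male marker was measured. elt-2, the main intestinal transcription factor gene, averaged 5.55 and 5.52 over its 2 probe sets, which disagreed. The brighter read 6.29 and 6.62, and the dimmer 4.81 and 4.41. Of the 5 sperm markers 4 were measured and lower on the pOPC7 array (median -0.31), while the dim spe-9 went the other way (0.37). All 4 oocyte markers were measured and lower (median -0.25, with a mean level of 8.05 in the control and 7.84 with pOPC7). Over all measured genes 57.8% were above 0. Both probe sets of oma-2 and of cbd-1 were below 0. The low-numbered ones (-0.35 and -0.41) were further below than the others (-0.19 and -0.23). The intestinal list had a mean level of 9.49 and 9.52. The part of these in the ABC differences was not tested.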

How the data were processed

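The deposited table holds log2 values of 22625 probe sets on 2 arrays, 1 per group, made by the authors with RMA per the submitters' processing notes (background subtraction, quantile normalisation, median polish). The version of RMA is not given in the sources used here, nor is whether a column stands for 1 hybridisation. The log2 scale was read from the deposited values (1.78 to 13.90). Per the labels, 200 ng of total RNA was amplified and biotin-labelled. Names came from the platform annotation (20766 with 1 symbol, 887 with several, 972 unnamed here), and all 54 member symbols matched the WBcel235 table through Entrez identifiers. That table gave chromosomes and neighbours, and probe positions were not used here.

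Singly named probe sets of a gene were averaged. Every measured member was named, and of each list of related genes up to 3 with the largest difference. The members and lists were chosen with earlier results of these data known. Of 174 symbols in the related and marker lists, 13 matched no gene on the array. With 1 array per group no test was run and no replicate could be left out. The code was tested on simulated data. The number that divides low-numbered from high-numbered probe sets was the round number that best split their differences. Other settings were limits on dim genes, 3 kinds of centring, the choice of probe sets, a 2-fold threshold and a mean in place of the median. Python 3.11.15, pandas 2.3.3, numpy 2.4.6, statsmodels 0.14.6 (loess, span 0.3) and matplotlib 3.10.9 were used.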

Additional observations from a re-analysis of the deposited data

How the results depend on the processing

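No ABC gene was past 2-fold. At 1.5-fold the count of higher ABC genes was 1 in place of 0 with a mean limit of 5, with no limit and with the brighter array at 6 or more, in each case wht-6. The count of lower ones was 1 in place of 0 after centring on the median, removal of the loess trend and centring in 10 bins of probe set number, in each case wht-2. Over all measured genes the 59 higher and 17 lower became 41 and 30, 33 and 34, and 39 and 34 under those 3 settings. The median over ABC genes (0.09) was 0.041 with no limit, 0.031 with the loess trend removed and 0.0032 without suffixed probe sets (17 genes left). The abt and ced-7 median (0.12) was 0.00043 with a limit of 5, 0 with no limit and 0.25 without suffixed probe sets. The haf median (0.10) was 0.20 with a limit of 7 and, in a setting chosen after seeing the data, 0.20 without probe sets numbered below 176000. The mrp median (0.15) was -0.0072 without suffixed probe sets, where 1 gene was left, and the wht median (-0.05) was -0.35 with the brightest probe set. Fewer genes enter where a limit is raised or probe sets are left out. More enter where the limit is lowered or dropped, with 6 and 7 abt and ced-7 genes in place of 4. With the brightest probe set 4 wht genes entered in place of 3. There wht-1 came in with a mean level of 6.10 and a difference of -0.52, and wht-7 stood at -0.17. The cause of the other shifts was not tested. Of 274 values of single genes under other settings, 265 moved by less than a tolerance and 9 by more (abcf-2, haf-4, ced-7 and pmp-3). Signs turned in 15, over 6 genes. The tolerance was the SD of a single probe set over all genes (0.22), divided by the square root of the gene's number of probe sets. Limits on level cannot change a gene's value, nor can the choice of probe sets where a gene has 1, so the 265 were partly fixed in advance. No wht gene had a mean of 7. No paired analysis was possible because each group has 1 array. With 1 array per group the spread between animals is unknown, and dim genes, with a robust SD of 0.24 below the measured level against 0.18 above, are read less surely.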

Other observations

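The dim ABC genes wht-3 and abt-3 had the same value to all deposited digits on both arrays. Over all genes 312 did so, of which 47 were measured. The X chromosome held 15 of the 54 ABC genes, all of them pgp (9) or mrp (6) genes, and 5 of the 15 were measured. With no limit on level, the median difference of the 15 was 0.13, beside 0.09 for all 2353 genes of the X chromosome. The 9 ABC genes on chromosome V had 0.13 (all genes there 0.07), the 7 on I had 0.05 (0.04), the 7 on IV 0.00086 (0.05), the 11 on III 0 (0.05) and the 5 on II -0.03 (0.07).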
